A study of Mus musculus with 6 samples.

Results

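The iron and heme handling genes of macrophages described here were the 10 genes Hmox1, Blvrb, Slc40a1, Fth1, Ftl1, Slc11a1, Tfrc, Ireb2, Aco1 and Spic, chosen by their known function, out of 54648 gene symbols in the table of estimated counts. They were measured by RNA-seq of total RNA from peritoneal cells of C57BL/6 mice 6 to 8 weeks old, on a standard chow diet. Each mouse was injected with 3% thioglycollate, an irritant that draws macrophages into the peritoneal cavity, and the cells were collected 4 days later. There were 3 libraries from wildtype (WT) mice and 3 from FOXO3 KO mice, which lack the transcription factor FOXO3 in the whole animal, and both genotypes received thioglycollate. The mice were littermates genotyped as homozygous WT or FOXO3 KO. They were male and female, with the sex of each library not given by the labels, and the labels do not say whether a library came from 1 mouse or from pooled mice.

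Macrophages take up worn-out erythrocytes, break down their heme and return the iron to the circulation or store it in ferritin. HMOX1 opens the heme ring and releases iron, ferroportin (Slc40a1) exports iron, and the ferritin heavy and light chains (Fth1, Ftl1) store it. BLVRB is named as a biliverdin reductase. When iron is scarce, the iron regulatory proteins ACO1 and IREB2 bind a stem-loop called the iron-responsive element, which blocks translation when it lies in a 5′ untranslated region and protects the transcript from decay when it lies in a 3′ untranslated region.

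A scan of the GENCODE M21 transcripts for such stem-loops found them in 4 of the 10 members. They are shown because the iron regulatory proteins are known to act on these 4 transcripts through them. The scan did not match the other members. The scan asked for an unpaired C, 5 paired bases and a loop of 6 bases that reads CAGTGN, with G-T pairs allowed. Each line below gives 27 transcript bases, 5′ to 3′, with the loop in capitals.
Fth1, 5′ untranslated region, chr19:9982733-9982759, plus strand: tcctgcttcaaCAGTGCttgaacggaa
Ftl1, 5′ untranslated region, chr7:45459780-45459806, minus strand: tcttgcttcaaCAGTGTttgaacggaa
Slc40a1, 5′ untranslated region, chr1:45925466-45925492, minus strand: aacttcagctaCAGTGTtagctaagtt
Tfrc, 3′ untranslated region, chr16:32631220-32631246, plus strand: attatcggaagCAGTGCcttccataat
Tfrc, 3′ untranslated region, chr16:32631599-32631625, plus strand: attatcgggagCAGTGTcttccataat
Tfrc, 3′ untranslated region, chr16:32631664-32631690, plus strand: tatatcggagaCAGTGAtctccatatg
Tfrc, 3′ untranslated region, chr16:32631711-32631737, plus strand: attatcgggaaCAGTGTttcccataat
All positions are in GRCm38, the assembly that mm10 names. The same scan matched a 5′ untranslated region in 31 of 20899 genes (0.148%) and a 3′ untranslated region in 129 of 21022 genes (0.614%). A match describes the letters of the transcript and was not tested as a binding site.

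Library totals ran from 28083393 to 36424117 counts. Values are given as CPM, the counts of a gene relative to a fixed total of counts in each library, scaled by the TMM factors of edgeR. The targeted gene Foxo3 stood at 117, 107 and 72.9 CPM in WT 1, WT 2 and WT 3, and at 4.71, 104 and 4.28 CPM in FOXO3 KO 1, FOXO3 KO 2 and FOXO3 KO 3. Foxo3 in the library labelled FOXO3 KO 2 was therefore within the WT range, against its label, and the comparisons are therefore given with and without that library. Among the WT libraries, WT 3 stood apart. Its summed level of 8 markers of large resident peritoneal macrophages was 5965 CPM, against 152 to 557 CPM in the other 5 libraries, and that of 8 B cell markers was 5724 CPM, against 299 to 1418 CPM. The sum of 12 general macrophage markers ranged from 15068 CPM in WT 3 to 19842 CPM in WT 2, so the labelled cell type was present in every library. In bulk RNA, fewer cells of a type and less RNA per cell cannot be told apart.

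The question was which iron and heme genes differed between FOXO3 KO and WT cells. With all 6 libraries, 0 of the 10 members passed a fold change over 1.5 with a false discovery rate (FDR) under 0.05 in the edgeR quasi-likelihood test, where 0% of the 15608 genes tested passed. Without FOXO3 KO 2, 0 of 10 members passed, and again 0% of 16217 genes. The targeted gene Foxo3 did not pass either. Its log2 fold change was -1.40 (SE 1.22, adjusted p = 0.859) with 6 libraries and -4.46 (SE 0.29, adjusted p = 0.105) without FOXO3 KO 2. A count of 0 in this test therefore does not show that the members were unchanged. All 10 members passed the filter on low counts in both fits. At an unadjusted p under 0.05, 0 members were higher in FOXO3 KO and 1, Spic, was lower, in both fits. The shares of all genes tested at that level were 4.04% higher and 1.65% lower with 6 libraries, and 3.05% higher and 1.26% lower without FOXO3 KO 2. By DESeq2, 0 of 10 members passed the fold and FDR thresholds in either fit, against 0.890% of all genes with 6 libraries and 0.572% without FOXO3 KO 2. The median log2 fold change of the members was 0.13 with 6 libraries and 0.06 without FOXO3 KO 2, and that of all genes tested was -0.01 and -0.02.

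**Figure D1:**
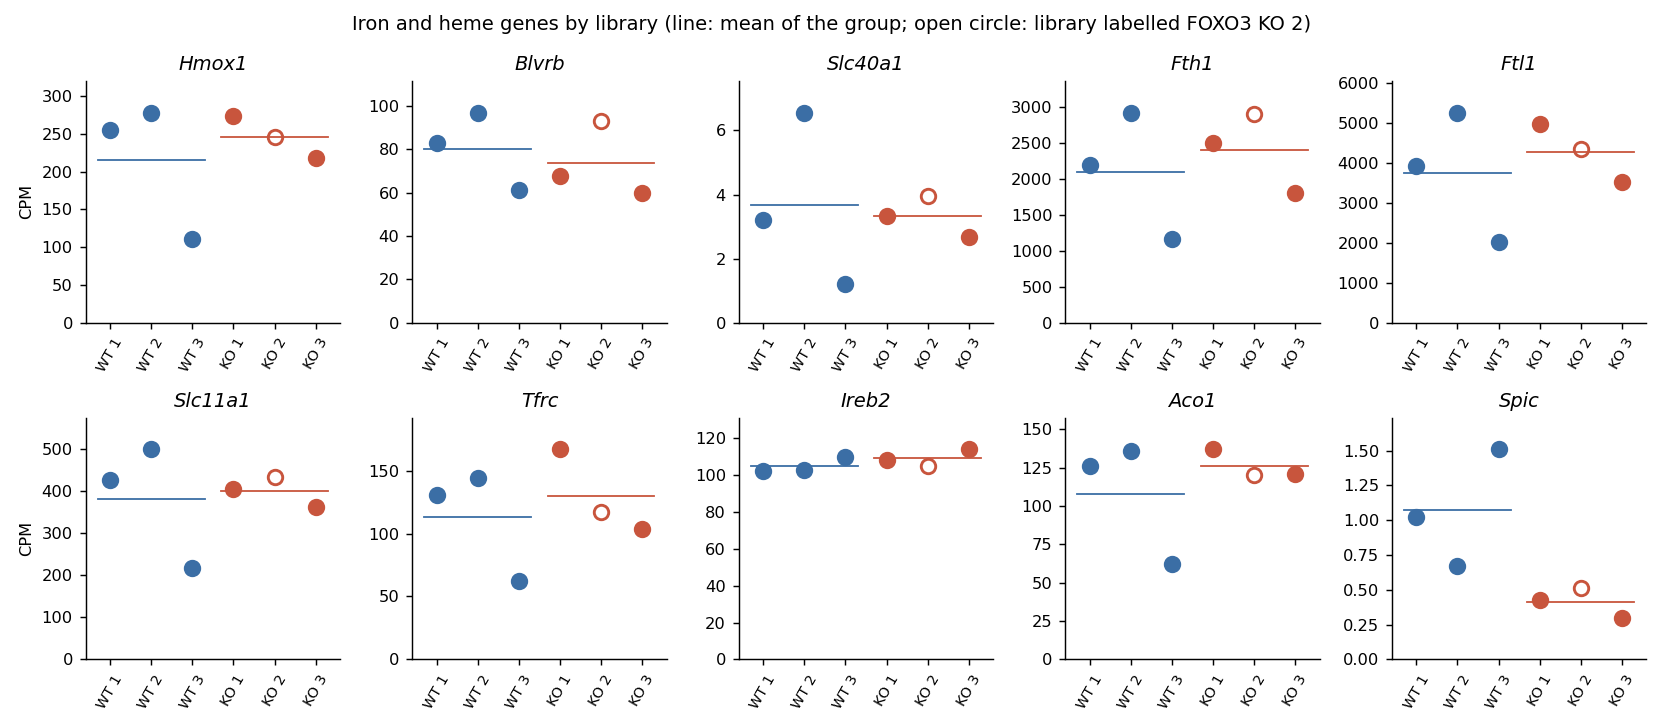
Level of each of the 10 members in every library, in CPM on a linear axis that starts at 0, with WT in blue, FOXO3 KO in red, the library labelled FOXO3 KO 2 as an open circle and the mean of each group as a line. WT 3 is the lowest point for 7 of the 10 genes, Ireb2 is level across all 6 libraries, and Spic is the gene whose groups do not overlap.

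Heme breakdown was led by Hmox1, heme oxygenase 1 (chr8:75093621-75100589), which is induced by heme and by oxidative stress. Its levels were 255, 278 and 111 CPM in WT 1 to 3 and 274, 245 and 218 CPM in FOXO3 KO 1 to 3. All 3 FOXO3 KO libraries lay inside the WT range, and the low value was WT 3. The log2 fold change, FOXO3 KO over WT, was 0.19 (SE 0.34, adjusted p = 0.908), and 0.20 (SE 0.42, adjusted p = 0.994) without FOXO3 KO 2. Blvrb, biliverdin reductase B (chr7:27447978-27466144), is listed here with heme breakdown and is not taken as the step that follows HMOX1. It stood at 82.8, 96.9 and 61.3 CPM in WT and at 67.8, 93.2 and 59.7 CPM in FOXO3 KO. The groups overlapped, with WT 3, FOXO3 KO 1 and FOXO3 KO 3 as the lowest 3 libraries. Its log2 fold change was -0.13 (SE 0.23, adjusted p = 0.911) and, without FOXO3 KO 2, -0.33 (SE 0.23, adjusted p = 0.994). With WT 3 left out as well, Blvrb reached -0.49 (SE 0.12, adjusted p = 0.357). The ratio of Hmox1 to Blvrb per transcript length, which cancels any factor common to both genes in a library, was 2.02, 1.88 and 1.18 in WT and 2.65, 1.72 and 2.39 in FOXO3 KO. FOXO3 KO 1 and FOXO3 KO 3 were above all WT libraries and FOXO3 KO 2 was not. The 2-sided exact permutation p was 0.3 with 6 libraries and 0.2 without FOXO3 KO 2, where 0.2 is the smallest p that 3 against 2 libraries allow.

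Iron export rests on Slc40a1, ferroportin (chr1:45908068-45926523), the known route of iron out of the cell. Its levels were low, at 3.21, 6.56 and 1.20 CPM in WT and 3.33, 3.97 and 2.66 CPM in FOXO3 KO, from 43 to 186 counts a library. The WT libraries held both the highest and the lowest value, and the FOXO3 KO libraries lay between them. The log2 fold change was -0.14 (SE 0.59, adjusted p = 0.966), and -0.29 (SE 0.72, adjusted p = 0.994) without FOXO3 KO 2. Its sign turned without WT 2, to 0.59, and it was -0.54 without WT 3, so these data give no direction for ferroportin.

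The ferritin chains were the most abundant members. Fth1, the heavy chain with the ferroxidase site (chr19:9980598-9985098), stood at 2193, 2917 and 1161 CPM in WT and 2495, 2898 and 1797 CPM in FOXO3 KO. Ftl1, the light chain (chr7:45457944-45459884), stood at 3923, 5265 and 2031 CPM in WT and 4971, 4352 and 3525 CPM in FOXO3 KO. For both chains every FOXO3 KO library lay inside the WT range, and WT 3 was the lowest library. The log2 fold change was 0.20 for both, with an SE of 0.39 and an adjusted p of 0.916 for Fth1 and an SE of 0.40 and an adjusted p of 0.918 for Ftl1. Without FOXO3 KO 2 it was 0.04 (SE 0.46) for Fth1 and 0.18 (SE 0.50) for Ftl1. The ratio of light to heavy chain transcripts per length was 1.72, 1.73 and 1.68 in WT, a mean of 1.71 ± 0.0276 (SD, n = 3). In FOXO3 KO 1 to 3 it was 1.91, 1.44 and 1.88. The WT ratios held together although Fth1 and Ftl1 in WT 3 were at 0.455 and 0.442 times the mean of WT 1 and WT 2. The ratio in FOXO3 KO 1 and FOXO3 KO 3 lay above the WT range and that in FOXO3 KO 2 below it. The exact permutation p of the ratio was 1 with 6 libraries and 0.2 without FOXO3 KO 2. Ferritin pseudogenes share sequence with these genes. The highest of 5 pseudogenes in the table, Ftl1-ps1, held 87 to 259 counts, against at least 72860 for Ftl1, and how the authors' counting split reads that such copies share is not stated.

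Slc11a1 encodes NRAMP1, a transporter known to move iron and other divalent metals out of the phagosome (chr1:74375195-74386062). Whether a working NRAMP1 protein is made in mice of this strain was not tested, and the values describe the transcript only. Slc11a1 stood at 425, 499 and 216 CPM in WT and 405, 434 and 361 CPM in FOXO3 KO, and the WT libraries again spanned the FOXO3 KO ones. Its log2 fold change was 0.07 (SE 0.31, adjusted p = 0.966), and 0.01 (SE 0.38, adjusted p = 0.999) without FOXO3 KO 2. Tfrc, the transferrin receptor that brings in transferrin-bound iron (chr16:32608920-32632794), stood at 131, 144 and 62.3 CPM in WT and at 167, 117 and 104 CPM in FOXO3 KO. FOXO3 KO 1 was the highest library and WT 3 the lowest. Its log2 fold change was 0.20 (SE 0.35, adjusted p = 0.907), and 0.27 (SE 0.42, adjusted p = 0.994) without FOXO3 KO 2. Iron scarcity is known to raise Tfrc transcripts through the 3′ stem-loops shown above. The ratio of Tfrc to Fth1 per length was 0.0113, 0.00940 and 0.0102 in WT and 0.0127, 0.00768 and 0.0110 in FOXO3 KO, with an exact permutation p of 1, and of 0.4 without FOXO3 KO 2.

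Of the iron sensors, Ireb2 (iron regulatory protein 2, chr9:54863789-54912530) was the most even member. Its levels were 102, 103 and 110 CPM in WT and 108, 105 and 114 CPM in FOXO3 KO, so the highest library was 1.12 times the lowest. Ireb2 was level in WT 3 too, at 1.08 times the mean of WT 1 and WT 2. Its log2 fold change was 0.05 (SE 0.09, adjusted p = 0.907), and 0.08 (SE 0.12, adjusted p = 0.994) without FOXO3 KO 2. Aco1, the cytosolic aconitase that becomes iron regulatory protein 1 when it loses its iron-sulfur cluster (chr4:40143081-40198338), behaved differently. It stood at 126, 136 and 62.2 CPM in WT and 137, 120 and 121 CPM in FOXO3 KO, with WT 3 the only library under 100 CPM. Its log2 fold change was 0.22 (SE 0.29, adjusted p = 0.891), and 0.25 (SE 0.36, adjusted p = 0.994) without FOXO3 KO 2. The Aco1 to Ireb2 ratio per length was 1.86, 1.99 and 0.848 in WT and 1.90, 1.73 and 1.59 in FOXO3 KO, with an exact permutation p of 0.9, and of 1 without FOXO3 KO 2. These 4 ratios were chosen after the levels had been seen, and each had a Benjamini-Hochberg adjusted p of 1 over the 4 with 6 libraries.

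Spic encodes the transcription factor that red pulp macrophages of the spleen need to develop and that heme is known to induce (chr10:88674772-88685015). It was detected at 1.02, 0.670 and 1.51 CPM in WT, from 37, 19 and 54 counts, and at 0.425, 0.510 and 0.299 CPM in FOXO3 KO, from 12, 14 and 10 counts. Every FOXO3 KO library, FOXO3 KO 2 included, was below every WT library. Spic was the 1 member of 10 whose groups did not overlap. Over all genes tested, 5.37% were lower and 7.00% higher in FOXO3 KO with no overlap, or 9.26% lower and 11.0% higher without FOXO3 KO 2. The log2 fold change of Spic was -1.38 (SE 0.41, adjusted p = 0.731). Without FOXO3 KO 2 it was -1.56 (SE 0.50, adjusted p = 0.994). Without WT 3, the highest library, it was -1.04 (SE 0.40, adjusted p = 0.562). The 2-sided exact permutation p was 0.1, the smallest that 3 against 3 libraries allow. With groups that do not overlap, this permutation p and a kept direction on leaving out a library follow from the values. Neither adds to the lack of overlap. The difference did not pass adjustment over all genes. Spic rests on 10 to 54 counts a library, and the nearest libraries of the 2 groups, WT 2 and FOXO3 KO 2, held 19 and 14 counts.

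The other markers of red pulp macrophages were looked at beside Spic. Vcam1 stood at 0.83, 0.881 and 0.836 CPM in WT and 1.13, 3.39 and 1.88 CPM in FOXO3 KO. Treml4 stood at 0.941, 1.23 and 0.864 CPM in WT and 2.62, 1.24 and 2.78 CPM in FOXO3 KO. For both, every FOXO3 KO library was above every WT library, opposite to Spic. For Treml4, however, FOXO3 KO 2 at 1.24 CPM and WT 2 at 1.23 CPM were nearly level. The study also placed Treml4 in its signature, so its direction here is not independent evidence. Vcam1 was highest in FOXO3 KO 2, as was the summed level of the mesothelial markers described below. That sum was 9.98, 38.1 and 15.8 CPM in FOXO3 KO 1 to 3 and at most 5.04 CPM in WT. The part of mesothelial cells in the Vcam1 values was not tested. Itgad stayed between 0.247 and 0.425 CPM in all 6 libraries and Cd163, the hemoglobin scavenger receptor, between 12.2 and 18.9 CPM. Siglec1 stayed between 69.4 and 149 CPM, and Cd5l between 355 and 676 CPM. The summed level of these 6 markers, mostly Cd5l, was 515 to 750 CPM in WT and 614 to 844 CPM in FOXO3 KO, without the order seen for Spic. Of the 6, 2 were higher and 0 lower in FOXO3 KO at an unadjusted edgeR p under 0.05, where 4.04% and 1.65% of all genes were. Without FOXO3 KO 2 the counts were 1 and 0, against 3.05% and 1.26%, and 0 passed adjustment in either fit. Spic was highest in WT 3, the library with the highest resident macrophage and B cell markers, and the part of those cells in the Spic values was not tested.

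**Figure D2:**
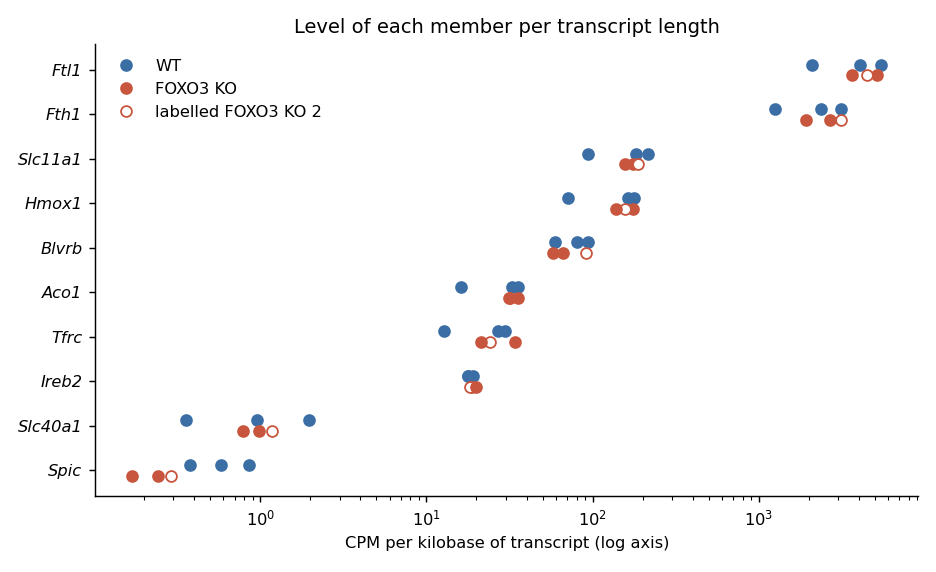
Level of each member per transcript length, in CPM per kilobase on a log axis, with WT in blue above and FOXO3 KO in red below in each row and the library labelled FOXO3 KO 2 open. The ferritin chains sit near the top at 1250 to 5440 CPM per kilobase, and Slc40a1 and Spic sit at the bottom, under 2 CPM per kilobase.

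Levels were compared between members per kilobase of the transcript GENCODE lists first among its principal ones. The order of the means over the 6 libraries was Ftl1 at 4140 ± 1200 CPM per kilobase (SD, n = 6), Fth1 at 2420 ± 733, Slc11a1 at 168 ± 41.5, Hmox1 at 147 ± 39.7, Blvrb at 74.8 ± 15.8, Aco1 at 30.6 ± 7.27, Tfrc at 24.8 ± 7.40, Ireb2 at 18.6 ± 0.829, Slc40a1 at 1.04 ± 0.526 and Spic at 0.419 ± 0.256. The ranges over libraries left 3 gaps in this order, between Fth1 and Slc11a1, between Blvrb and Aco1, and between Ireb2 and Slc40a1. All other neighbours overlapped. Within each library, however, Ftl1 was above Fth1 by 1.44 to 1.91 times. Ferroportin was thus far below both ferritin chains in every library of either genotype.

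**Figure D3:**
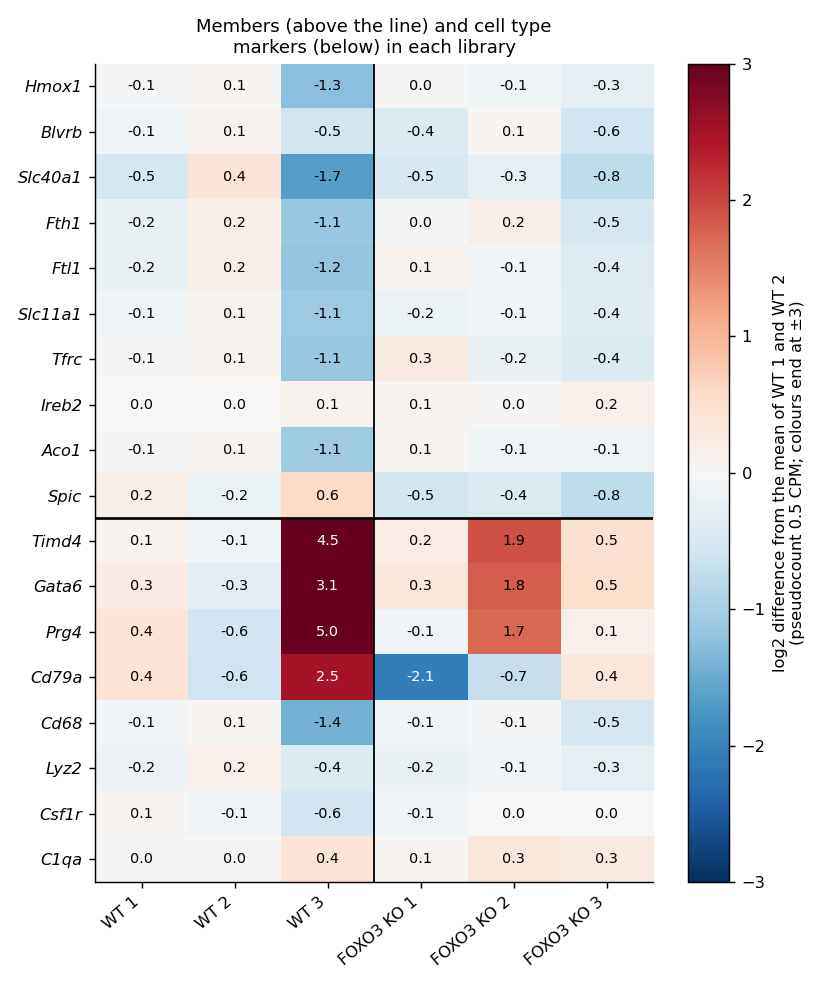
Difference of each library from the mean of WT 1 and WT 2, as log2 of CPM with a pseudocount of 0.5 CPM, for the 10 members above the line and for 8 cell type markers below it. In the WT 3 column 8 members are blue and the general macrophage markers are of mixed sign, from -1.42 for Cd68 to 0.41 for C1qa, while the resident macrophage markers Timd4, Gata6 and Prg4 and the B cell marker Cd79a are red.

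Most members varied more among the WT libraries than between the genotypes. WT 3 was the lowest library for 7 of the 10 members, and WT 2 the highest for 6. Against the mean of WT 1 and WT 2, the level in WT 3 was 0.245 times for Slc40a1, 0.416 for Hmox1, 0.442 for Ftl1, 0.453 for Tfrc, 0.455 for Fth1, 0.468 for Slc11a1, 0.474 for Aco1 and 0.682 for Blvrb. The remaining members were Ireb2, at 1.08 times, and Spic, at 1.78 times. The 8 low members thus covered heme breakdown, export, storage, transport and 1 of the 2 sensors. Below 0.75 times were 80% of the members, 34.7% of 49 other iron and heme genes and 27.1% of all genes tested. The median ratio was 0.461 for the members, 0.815 for the other iron and heme genes and 1.01 for all genes tested. Because WT 3 has no second library of its kind by its resident macrophage and B cell markers, this difference has no replicate check. Among the FOXO3 KO libraries, FOXO3 KO 3 was the lowest for each of the 8 low members except Aco1. In those members its log2 difference from the mean of WT 1 and WT 2, with a pseudocount of 0.5 CPM, ran from -0.77 for Slc40a1 to -0.29 for Hmox1. In WT 3 these 2 genes were at -1.66 and -1.26.

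Marker levels of WT 3 are given beside these values. Timd4, Gata6 and Prg4, which mark large resident peritoneal macrophages, stood at 317, 41.0 and 2854 CPM in WT 3 and at no more than 51.1, 16.9 and 294 CPM in the other libraries. FOXO3 KO 2 was next for these markers, with a summed level of the 8 resident markers of 557 CPM, against 5965 CPM in WT 3. Of the 12 general macrophage markers, 8 were below the mean of WT 1 and WT 2 in WT 3 and 4 above it, from 0.373 times for Cd68, a lysosomal protein, to 1.33 times for C1qa, a complement subunit. The part of cell makeup in the iron gene values of WT 3 was not tested.

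**Figure D4:**
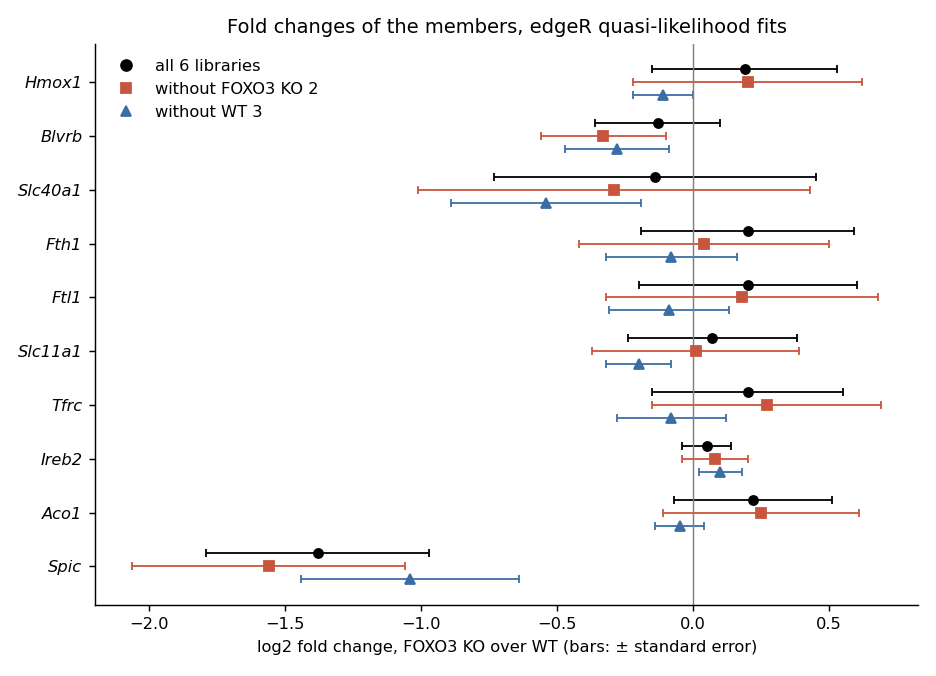
Log2 fold change of each member, FOXO3 KO over WT, with its standard error as a bar, from edgeR fits with all 6 libraries (black circles), without FOXO3 KO 2 (red squares) and without WT 3 (blue triangles). Leaving out WT 3 moves 6 members from above 0 to below it, and Spic stays below 0 in all 3 fits.

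The signs of most members followed WT 3. With all 6 libraries 7 of 10 members had a log2 fold change above 0, and without WT 3 this held for 1, Ireb2, at 0.10 (SE 0.08). Without WT 3, Hmox1 was at -0.11 (SE 0.11), Fth1 at -0.08 (SE 0.24), Ftl1 at -0.09 (SE 0.22), Slc11a1 at -0.20 (SE 0.12), Tfrc at -0.08 (SE 0.20) and Aco1 at -0.05 (SE 0.09), and Blvrb and Slc40a1 were at -0.28 (SE 0.19) and -0.54 (SE 0.35). The median of the members was then -0.10, against 0.00 over all genes tested, and 0 members passed the thresholds, as did 0% of all genes. At an unadjusted edgeR p under 0.05, 0 members were higher and 1, Spic, lower, against 6.15% and 2.25% of all genes. With WT 3 and FOXO3 KO 2 both left out, the median was -0.18, against -0.01 over all genes, and 2 members, Spic and Blvrb, were lower and 0 higher at an unadjusted edgeR p under 0.05, against 3.39% and 5.49% of all genes. By the fold and FDR thresholds 0 members passed in that fit, against 0.0256% of all genes. Without WT 3 the highest library was 1.12 to 1.62 times the lowest for 8 members, 2.46 times for Slc40a1 and 3.42 times for Spic.

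Xist, which is expressed from the inactive X chromosome, stood at 869 CPM in WT 3 and 1130 CPM in FOXO3 KO 3 and under 0.2 CPM in the other 4 libraries. The comparison was therefore also read within each of these sets. In log2 of CPM with a pseudocount of 0.5, FOXO3 KO 3 was above WT 3 by 0.97 for Hmox1, 0.95 for Aco1, 0.90 for Slc40a1, 0.80 for Ftl1, 0.74 for Slc11a1, 0.74 for Tfrc, 0.63 for Fth1 and 0.05 for Ireb2, and differed by -0.04 for Blvrb. FOXO3 KO 1 differed from the mean of WT 1 and WT 2 by 0.04 for Hmox1, 0.06 for Aco1, -0.42 for Slc40a1, 0.13 for Ftl1, -0.19 for Slc11a1, 0.28 for Tfrc, -0.02 for Fth1, 0.08 for Ireb2 and -0.40 for Blvrb. FOXO3 KO 2, also low in Xist, differed from that mean by -0.12 for Hmox1, -0.12 for Aco1, -0.19 for Slc40a1, -0.06 for Ftl1, -0.09 for Slc11a1, -0.23 for Tfrc, 0.20 for Fth1, 0.03 for Ireb2 and 0.06 for Blvrb. For Hmox1, Aco1, Slc40a1, Ftl1, Slc11a1, Tfrc and Fth1 both differences in the low-Xist set were smaller in size than that of the pair high in Xist, while for Blvrb and Ireb2 that of FOXO3 KO 1 was larger. Spic was lower in FOXO3 KO in both sets, at -1.33 in FOXO3 KO 3 against WT 3 and at -0.53 in FOXO3 KO 1 and -0.40 in FOXO3 KO 2 against WT 1 and WT 2. One of these sets is the pair that holds WT 3, so in its differences the Xist split and the makeup of WT 3 cannot be told apart. FOXO3 KO 3, also high in Xist, did not share that makeup. Its resident macrophage and B cell markers summed to 300 and 1282 CPM, against 5965 and 5724 CPM in WT 3.

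Hemoglobin transcripts, a measure of erythroid RNA in the sample, are of interest beside heme genes. The 11 erythroid markers in the table summed to 11.5 to 28.1 CPM in WT and, in FOXO3 KO 1 to 3, to 119, 11.0 and 185 CPM. The sum was mostly globin, with Hbb-bs at 59.7 and 89.4 CPM in FOXO3 KO 1 and FOXO3 KO 3 and at 4.72 to 12.5 CPM in the other 4 libraries. Of the 6 erythroid markers tested, 3 were higher in FOXO3 KO at an unadjusted edgeR p under 0.05, against 4.04% of all genes, and 5 of 6 without FOXO3 KO 2, against 3.05%. In both fits 0 passed adjustment. The study placed Hba-a1, Hba-a2 and Alas2 in its signature, so their direction here is not independent evidence. In the 2 libraries with the most globin, FOXO3 KO 1 and FOXO3 KO 3, Hmox1 stood at 274 and 218 CPM. Whether globin RNA bears on any iron gene was not tested.

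**Figure D5:**
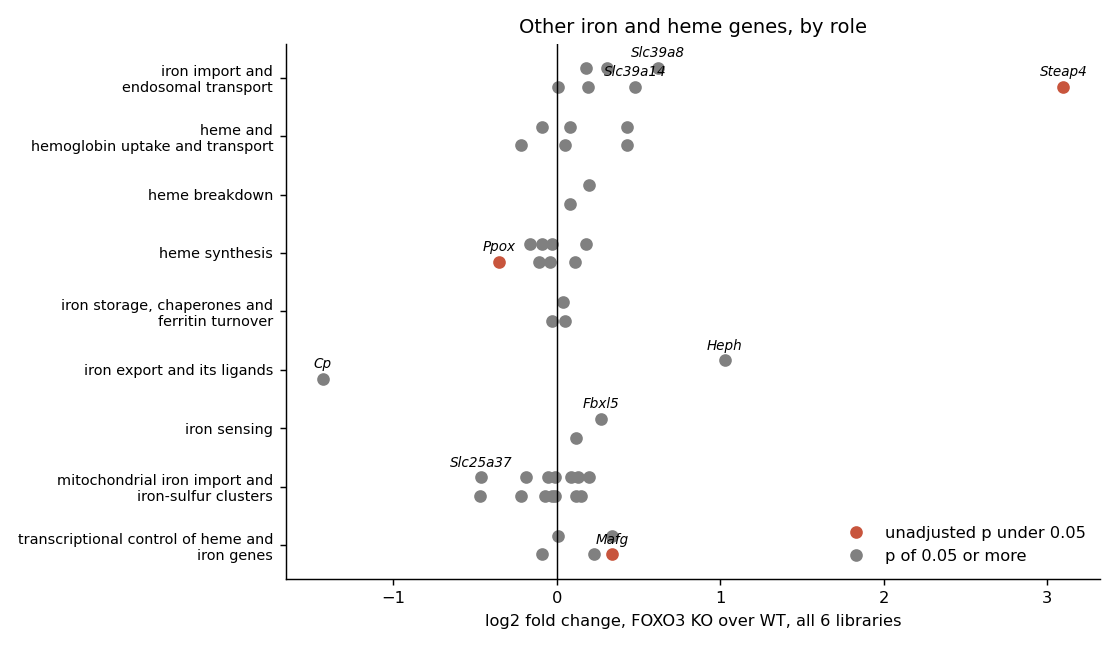
Log2 fold change, FOXO3 KO over WT with all 6 libraries, of the 49 tested genes of the wider iron and heme list, grouped by role, with genes at an unadjusted edgeR p under 0.05 in red. Most genes lie within 0.5 of 0, and Steap4 stands apart at 3.10.

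A wider list of 54 iron and heme genes was then counted, of which 49 were tested with 6 libraries. The others were Tfr2, Flvcr2, Hpx and Hamp, with at most 13 counts in any library, and Ftmt, with a count of 0 in every library, which allows up to 0.083 to 0.109 CPM for counting error. With 6 libraries 0 genes passed the fold and FDR thresholds by edgeR, 2 were higher and 1 lower at an unadjusted p under 0.05, and 3 were higher and 3 lower with no overlap of the groups. Of all genes, 4.04% were higher and 1.65% lower at that p, and 7.00% higher and 5.37% lower with no overlap. Without FOXO3 KO 2, 0 of 50 passed, 3 were higher and 1 lower at that p, and 5 were higher and 5 lower with no overlap. The shares of all genes there were 3.05% and 1.26% at that p, and 11.0% and 9.26% with no overlap, so the counts of the list were close to those of all genes. The median log2 fold change was 0.05 and 0.02. By role, the counts at an unadjusted p under 0.05 with 6 libraries were 1 of 7 higher in iron import and endosomal transport, 1 of 8 lower in heme synthesis and 1 of 5 higher among transcriptional regulators of heme and iron genes. They were 0 of 6 in heme uptake and transport, 0 of 2 in heme breakdown, 0 of 3 in storage and ferritin turnover, 0 of 2 in export, 0 of 2 in sensing and 0 of 14 in mitochondrial iron import and iron-sulfur clusters.

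Steap4, a metalloreductase that reduces iron and copper ahead of their import, was the gene of the wider list that differed most. It stood at 1.63, 0.881 and 0.809 CPM in WT and at 8.67, 10.9 and 9.03 CPM in FOXO3 KO, from 25 to 59 and 245 to 302 counts. Every FOXO3 KO library was above every WT library, and the highest was FOXO3 KO 2, the library in which Foxo3 itself was at the WT level. The log2 fold change was 3.10 (SE 0.34, adjusted p = 0.714 by edgeR), and 2.99 (SE 0.39, adjusted p = 0.437) without FOXO3 KO 2. Steap4 passed the thresholds by DESeq2, with an adjusted p of 1.06e-15 with 6 libraries and 3.28e-09 without FOXO3 KO 2. The study placed Steap4 in its signature, so its direction here is not independent evidence. The fitted edgeR fold, FOXO3 KO over WT, was 8.57 for Steap4 and 0.38 for Foxo3 with 6 libraries. Without FOXO3 KO 2 it was 7.96 for Steap4 and 0.0455 for Foxo3. The fold changes that the study lists for both genes are closer to the fit without that library. Whether the signature used that library was not tested. Beside Steap4, 6 mesothelial markers summed to 4.41 to 5.04 CPM in WT and 9.98, 38.1 and 15.8 CPM in FOXO3 KO 1 to 3. Neutrophil markers, 13 genes, summed to 128 to 201 CPM in WT and 477, 201 and 393 CPM in FOXO3 KO. The increase lay mostly in S100a8 and S100a9, with S100a9 at 0.251 to 5.61 CPM in WT and 164, 6.93 and 116 CPM in FOXO3 KO. Cxcr2 stood at 0.585 to 0.885 CPM in WT and 18.7, 2.22 and 14.4 CPM in FOXO3 KO. Ly6g, Ngp, Camp, Mpo and Elane were near 0, at no more than 0.247 CPM in any library. Csf3r stood at 115 to 139 and 139 to 164 CPM, and Retnlg at 3.46 to 21.2 and 16.9 to 21.7 CPM. Of the 8 tested, 4 were higher and 0 lower at an unadjusted edgeR p under 0.05, against 4.04% and 1.65% of all genes. Without FOXO3 KO 2 they were 3 and 0, against 3.05% and 1.26%. S100a8, S100a9 and Cxcr2 are also in the study's signature, as are Wt1 and Krt19 of the mesothelial markers. Their direction here is therefore not independent evidence either. The part of neutrophils in the Steap4 values was not tested.

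The other named genes of the wider list differed less. Mafg, a small MAF protein that pairs with BACH1 and NRF2, stood at 83.4, 91.2 and 68.4 CPM in WT and 104, 102 and 102 CPM in FOXO3 KO, with a fitted log2 difference of 0.34 (SE 0.13, adjusted p = 0.839) and, without FOXO3 KO 2, 0.35 (SE 0.16, adjusted p = 0.994). Ppox, protoporphyrinogen oxidase of heme synthesis, stood at 34.8, 30.9 and 40.1 CPM in WT and 26.1, 28.5 and 28.4 CPM in FOXO3 KO, at -0.35 (SE 0.12, adjusted p = 0.827) and, without FOXO3 KO 2, -0.37 (SE 0.16, adjusted p = 0.994). The groups did not overlap for either gene, and neither passed adjustment. Slc39a14, an importer of iron not bound to transferrin, stood at 20.0, 20.2 and 16.4 CPM in WT and 27.2, 19.0 and 32.9 CPM in FOXO3 KO. It overlapped through FOXO3 KO 2, with 0.48 (SE 0.22) and, without that library, 0.67 (SE 0.17, adjusted p = 0.874). Its relative Slc39a8 was at 0.62 (SE 0.31) and 0.71 (SE 0.37), with 3.35 to 7.12 CPM in WT and 6.93 to 9.77 CPM in FOXO3 KO.

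Fbxl5, the ubiquitin ligase subunit that marks IREB2 for degradation when iron is plentiful, stood at 120, 125 and 123 CPM in WT and 147, 125 and 171 CPM in FOXO3 KO. FOXO3 KO 1 and FOXO3 KO 3 were above the WT libraries, and FOXO3 KO 2 was close to them. Its log2 fold change was 0.27 (SE 0.14, adjusted p = 0.839), and 0.38 (SE 0.13, adjusted p = 0.994) without FOXO3 KO 2, beside the level Ireb2 transcript.

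Ceruloplasmin (Cp) and mitoferrin 1 (Slc25a37) took their direction from WT 3. Cp, a ferroxidase that works with ferroportin, stood at 49.9 CPM in WT 3 and at 3.07 to 10.1 CPM in the other 5 libraries, and its log2 fold change was -1.43 (SE 1.09) with WT 3 and 0.98 without it. Slc25a37 stood at 188 CPM in WT 3 and 60.6 to 98.1 CPM elsewhere, at -0.46 (SE 0.44) with WT 3 and 0.20 without it. Hephaestin (Heph), the membrane relative of ceruloplasmin, took its direction from FOXO3 KO 2, with 1.35 CPM there and 0.212 to 0.360 CPM elsewhere, at 1.03 (SE 0.77) with that library and -0.28 (SE 0.44) without it. Cp and Slc25a37 were thus high in the library in which Slc40a1 and the ferritin chains were low.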

How the data were processed

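RNA-seq of 3 WT and 3 FOXO3 KO libraries (paired reads of 76 bp) was analysed from 1 table of estimated counts that the authors deposited, with 54648 gene symbols and 0 columns without a sample. Of its values, 81.4% were within 0.01 of a whole number. The submitters' processing notes name STAR 2.6.1d, kallisto 0.46.0, DESeq2 and mm10, and which tool made the counts is not given in the sources used here, nor is the use of strand. The study's methods state the thresholds, a fold change over 1.5 and FDR under 0.05, and not the model.

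Counts were rounded, filtered with filterByExpr, scaled by TMM and tested with the quasi-likelihood test of edgeR 4.0.16 (R 4.3.3) with p adjusted by Benjamini-Hochberg across every tested gene, with all 6 libraries and without FOXO3 KO 2. A standard error is the log2 fold change divided by the square root of its F statistic. The alternatives were RLE scaling, no scaling factors, no filter, a minimum of 10 counts in 3 libraries, limma-voom (limma 3.58.1), DESeq2 1.42.0, a replicate block, a term for the Xist split, and leaving out each library. The code was tested on simulated data. Ratios were compared by exact permutation over libraries. Stem-loops were read from GENCODE M21 transcripts, and promoter windows from RefSeq (GRCm38.p6).

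The members, gene lists and tests were chosen with earlier results of these data known. Named genes were the 10 members, Foxo3, genes of the wider list at an unadjusted p under 0.05 in either fit or among the 3 largest increases or decreases, the 3 genes closest in pattern to Hmox1, Slc40a1 and Spic, and markers where a list is described. Some genes that this rule names are not reported here. No source says that replicates are separate mice, so p-values measure only the spread between these libraries. Intervals and limits for a count of 0 cover counting error only.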

Additional observations from a re-analysis of the deposited data

How the results depend on the processing

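No member passed the thresholds in either fit under any alternative run. Of 270 alternative log2 fold changes of the members, 244 kept their direction and 26 reversed, all at values that did not pass. Leaving out each library in turn, the fits with 6 libraries ranged from -0.11 to 0.43 for Hmox1, -0.33 to 0.03 for Blvrb, -0.54 to 0.59 for Slc40a1, -0.08 to 0.52 for Fth1, -0.09 to 0.53 for Ftl1, -0.20 to 0.32 for Slc11a1, -0.08 to 0.42 for Tfrc and -0.05 to 0.42 for Aco1. In the fits without FOXO3 KO 2 they ranged from -0.11 to 0.43 for Hmox1, -0.70 to 0.45 for Slc40a1, -0.25 to 0.36 for Fth1, -0.11 to 0.52 for Ftl1, -0.27 to 0.26 for Slc11a1, -0.12 to 0.59 for Tfrc and -0.02 to 0.46 for Aco1. Among the wider list, Cp ranged from -1.92 to 0.98 and, without FOXO3 KO 2, from -2.28 to 0.62, Slc25a37 from -0.75 to 0.20 and from -0.75 to 0.22, and Heph from -0.28 to 1.43. Slc40a1 also reversed with limma-voom, to 0.20 and, without FOXO3 KO 2, 0.06, and with a term for the Xist split, to 0.07 and 0.17. The cause was not tested. Spic kept its direction throughout, at -1.61 to -1.04 with 6 libraries and -1.83 to -1.24 without FOXO3 KO 2, with adjusted p from 0.186 to 1. As its groups did not overlap, leaving out a library could not be a check of that direction. With DESeq2, 1 gene of the wider list passed, Steap4, at 3.10.

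Same-numbered WT and FOXO3 KO libraries did not deviate together throughout (r = 0.339, -0.0612 and 0.567 across genes for numbers 1 to 3), so the numbers were not taken as pairing. With a replicate block, 0 members and 0 genes of the wider list passed with 6 libraries, Slc40a1 reversed to 0.14 and, without FOXO3 KO 2, 0.58, and Steap4 passed without FOXO3 KO 2, at 2.92. The alternatives for the wider list other than no filter, DESeq2 and leaving out libraries were chosen after seeing the data. Ranking the members by CPM and by CPM per kilobase gave 7 of 10 the same rank. Depth limits Spic most, at 10 to 54 counts a library.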

Other observations

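Likeness of levels over the 6 libraries was measured by the root mean square difference of mean-centred log2 CPM, with a pseudocount of 0.5 CPM. The genes most like Hmox1 were Card19 (0.0295), Coro1c (0.0301) and Vim (0.0336). Vim, the intermediate filament vimentin, stood at 2664, 2863 and 1133 CPM in WT and 2961, 2463 and 2219 CPM in FOXO3 KO, with the same low value in WT 3. For Slc40a1 they were Prkar1b (0.125), Glipr1 (0.154) and Pde7b (0.163), and for Spic Rhebl1 (0.117), D930048N14Rik (0.118) and Htr2a (0.138). Htr2a stood at 4.57, 3.28 and 5.41 CPM in WT and 2.23, 3.46 and 2.15 CPM in FOXO3 KO, so that FOXO3 KO 2 overlapped WT where it did not for Spic. Spic stood at 0.299 to 1.51 CPM, where the pseudocount narrows the differences between libraries, so its distances depend on that setting. Likeness over 6 libraries of 2 groups is a description only.

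In RefSeq promoter windows, found for 8 of the 10 members, the FoxO core GTAAACA matched 0 of 8 members, against 3.65% of 32851 windows, on either strand. The antioxidant response element core TGACNNNGC matched 0 of 8 members, against 12.4% of windows. The 8 members had 11 windows, too few for 0 matches to set them apart from other genes at these shares. This says only that these letters are not in those windows, and a site outside them would not be found.

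Of the 10 proliferation markers, 6 were higher in FOXO3 KO at an unadjusted edgeR p under 0.05 with and without FOXO3 KO 2, against 4.04% and 3.05% of all genes, and 0 passed adjustment, with sums of 309 to 335 CPM in WT and 374 to 382 CPM in FOXO3 KO. Among these markers, Ccnb1 and Cdk1 are in the study's signature, so their direction here is not independent evidence.

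Bola3, which helps insert iron-sulfur clusters, was the gene of the wider list whose 3′ untranslated region matched the stem-loop scan. Its stem includes a G-T pair, and the match was not tested as a binding site. The scan asked for a fixed pattern, so a gene without a match is not shown to lack such an element.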
